A study of Mus musculus with 6 samples.

Results

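The sarcomere scaffold and Z-disc genes are 40 genes for the proteins that hold the contractile lattice of striated muscle in register, chosen by gene symbol and found as 40 of the 24532 genes of the expression table. They are described here in gastrocnemius muscle of male C57BL/6 mice aged 20 weeks, in which poly(A) RNA was sequenced from 3 wild-type (WT) libraries and 3 libraries labelled *Sirt6* KO. *Sirt6* encodes a nuclear NAD+-dependent deacylase that acts on histones. Mice of both groups carried the *Sirt6* flox/flox alleles. Those labelled KO also carried *Myl1*-Cre, in which the promoter of a fast myosin light chain gene drives the recombinase mainly in fast type II fibers. Non-muscle cells of the tissue would thus keep the gene. In a gastrocnemius section the paper found the Cre reporter specifically in fast fibers, and it states that deletion was stronger in glycolytic than in oxidative muscles. Whether all slow fibers keep the gene is less clear, as the paper reports strong recombination in soleus, a mainly slow muscle, too. The WT mice lacked *Myl1*-Cre, which by its strain name is a targeted allele of *Myl1*. An effect of Cre or of that allele itself and an effect of deletion therefore cannot be told apart.

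In a sarcomere, actin thin filaments are anchored at the Z-disc by alpha-actinin and myosin thick filaments are crosslinked at the M-band by myomesins. Titin spans from the Z-disc to the M-band as an elastic scaffold, nebulin runs along the thin filament, and tropomodulins and leiomodins regulate its pointed end. Around the Z-disc lies a rim of filamin C, desmin and PDZ-LIM adaptors, and a further set of proteins (the XIRP proteins, the ankyrin repeat proteins CARP and ARPP, alpha B-crystallin) is known for being induced or recruited when fibers are strained or damaged. Several of these families have a member found mainly in fast fibers and another found mainly in slow fibers, such as *Actn3* and *Actn2* or *Myoz1* and *Myoz2*.

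*Sirt6* was examined first as a check of the labels. Its level in CPM (counts scaled to a common, normalized library size) was 2.77, 2.23 and 2.88 in WT and 7.81, 7.44 and 6.68 in the libraries labelled KO, a log2 fold change of 1.48 ± 0.17 (SE, n = 3 per group; adjusted p = 0.0113, edgeR quasi-likelihood test). The transcript of the targeted gene was thus higher, not lower, where the label says that it was deleted. For the protein, the paper reports ablation in skeletal muscle of mice of this cross by Western blot. Protein was not measured in these libraries. The counts sum over the whole gene and do not show which exons were read. All directions below are therefore given as values in the libraries labelled *Sirt6* KO relative to WT.

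The libraries held between 44845763 and 63016899 counts, and each of the 40 genes was among the 13801 tested, with at least 149 counts in every library. The labels number the replicates without tying them to animals, so p-values measure the spread between these libraries. The libraries did not separate by label in all respects. Summed CPM of 10 slow fiber genes (*Myh7*, *Tnnt1*, *Atp2a2* and others, none at 0 in every library) was 3593, 2969 and 140 in WT and 369, 2127 and 508 in the libraries labelled KO. WT 3 thus lay below all others on this sum, and KO 2 lay with WT 1 and WT 2. The fast fiber sum ran from 138249 to 220794 in WT and from 196753 to 231237 in the libraries labelled KO. By edgeR 0 of the 10 slow and 0 of the 10 fast fiber genes passed the test (0 and 1 at an unadjusted p under 0.05, and 0 and 2 by DESeq2). Among 41 tested markers of fibroblasts, tendon, endothelium, macrophages, adipocytes and erythroid cells edgeR called 0 (7 at an unadjusted p under 0.05, and 5 by DESeq2). These are the lists without a call, and the smooth muscle and Schwann cell lists held 3 and 1 called genes. In bulk tissue, fewer fibers of a type and less RNA per fiber cannot be told apart.

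Promoter sequence was available for 30 of the 40 genes (36 promoters of 250 bases before to 50 after an annotated start, RefSeq, GRCm38.p6), and was searched on both strands for elements that are known from muscle genes or from CREB, the cyclic AMP-responsive factor. The consensus of MEF2, a myogenic factor family, matched in 5 of the 30 genes. The 4 shown are those of *Ttn* and *Myom3* (scaffold), *Synpo2* (rim) and *Xirp2* (strain), of which *Xirp2* passed the test between groups. Capitals mark the matched bases, with the flanking bases in lower case.
Xirp2: agctcagttcCTAAAAATAGgtgctaggtt
Ttn: ttctgaaaggCTAAATTTAGcactgccaat
Myom3: ctcagcgctgCTATATTTAAgacggttaca
Synpo2: agcccggctaCTATTTATAGaataattaaa
The matches begin 74, 166, 35 and 236 bases before the annotated start of the respective promoter. For *Myom3* that start is internal, and the match (chr4:135759680-135759689) lies inside the gene (chr4:135758800-135815571). The *Xirp2* match lies at chr2:67445928-67445937 on the plus strand and the *Ttn* match at chr2:76982704-76982713 on the minus strand. Of all 32851 promoters of this length, 3.19% held the MEF2 consensus, against 13.9% of the members' promoters.

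The CArG box, the element bound by serum response factor, matched in 5 genes, among them both sarcomeric actins. Here too the capitals mark the matched bases.
Acta1: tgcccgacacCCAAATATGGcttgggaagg
Actc1: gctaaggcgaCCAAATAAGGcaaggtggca
Ldb3: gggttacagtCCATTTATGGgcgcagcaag
Myom1: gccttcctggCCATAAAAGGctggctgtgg
Fhl1: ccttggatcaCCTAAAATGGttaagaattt
The *Acta1* box lies 73 bases before the start (chr8:123894839-123894848, minus strand) and the *Actc1* box 47 bases before it (chr2:114052913-114052922, minus strand). For *Ldb3*, *Myom1* and *Fhl1* the annotated starts are internal. Their boxes (chr14:34588707-34588716, chr17:71019458-71019467 and chrX:56779581-56779590) lie inside the genes. Across all promoters the share with a CArG box was 1.63%, against 16.7% of the members' promoters. None of the 5 genes passed the test between groups. The full cyclic AMP response element, TGACGTCA, occurred in 1 gene, *Pdlim3*, where it begins 48 bases before the start.
Pdlim3: gggaggccagTGACGTCActcgcagcag
Among all genes with a promoter, 2.03% held that element. Its 5 leading letters, TGACG, which every full element also holds, occurred in 8 of the 30 genes (25.0% of their promoters against 20.8% of all). The E-box CANNTG, bound by myogenic basic helix-loop-helix factors, was in 25 of the 30 genes, and in 75.0% of all genes with a promoter. A match is a match of letters, and binding was not measured.

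The *Xirp2* promoter (chr2:67445752-67446051, plus strand) is given whole because *Xirp2* is the called gene with a MEF2 match, which stands in capitals.
Xirp2: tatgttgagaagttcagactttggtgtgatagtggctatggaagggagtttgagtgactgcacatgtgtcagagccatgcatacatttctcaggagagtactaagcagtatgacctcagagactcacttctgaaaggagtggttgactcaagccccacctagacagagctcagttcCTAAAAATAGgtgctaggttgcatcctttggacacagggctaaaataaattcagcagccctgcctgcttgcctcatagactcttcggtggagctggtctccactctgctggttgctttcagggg

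Of the 40 genes, 5 were lower and 2 were higher in the libraries labelled KO (adjusted p under 0.05, edgeR quasi-likelihood test with Benjamini-Hochberg adjustment over all genes tested). Those lower were *Myot*, *Flnc*, *Pdlim5*, *Xirp1* and *Xirp2*, and those higher *Obsl1* and *Tmod4*. The 7 called genes are 17.5% of the 40, and over all genes tested 16.2% were called (8.39% lower and 7.85% higher), so the share is close to the background. The median log2 fold change was -0.28 over the 40 genes and -0.02 over all genes, and 27 of the 40 values were negative. The groups did not overlap in 8 genes that were lower (19.6% of all genes tested were) and in 3 that were higher (20.3% of all genes tested). Differences over 2-fold were seen in 8 of the 40 genes (20%) and in 10.3% of all genes, and 6 of those 8 did not pass the test.

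**Figure D1:**
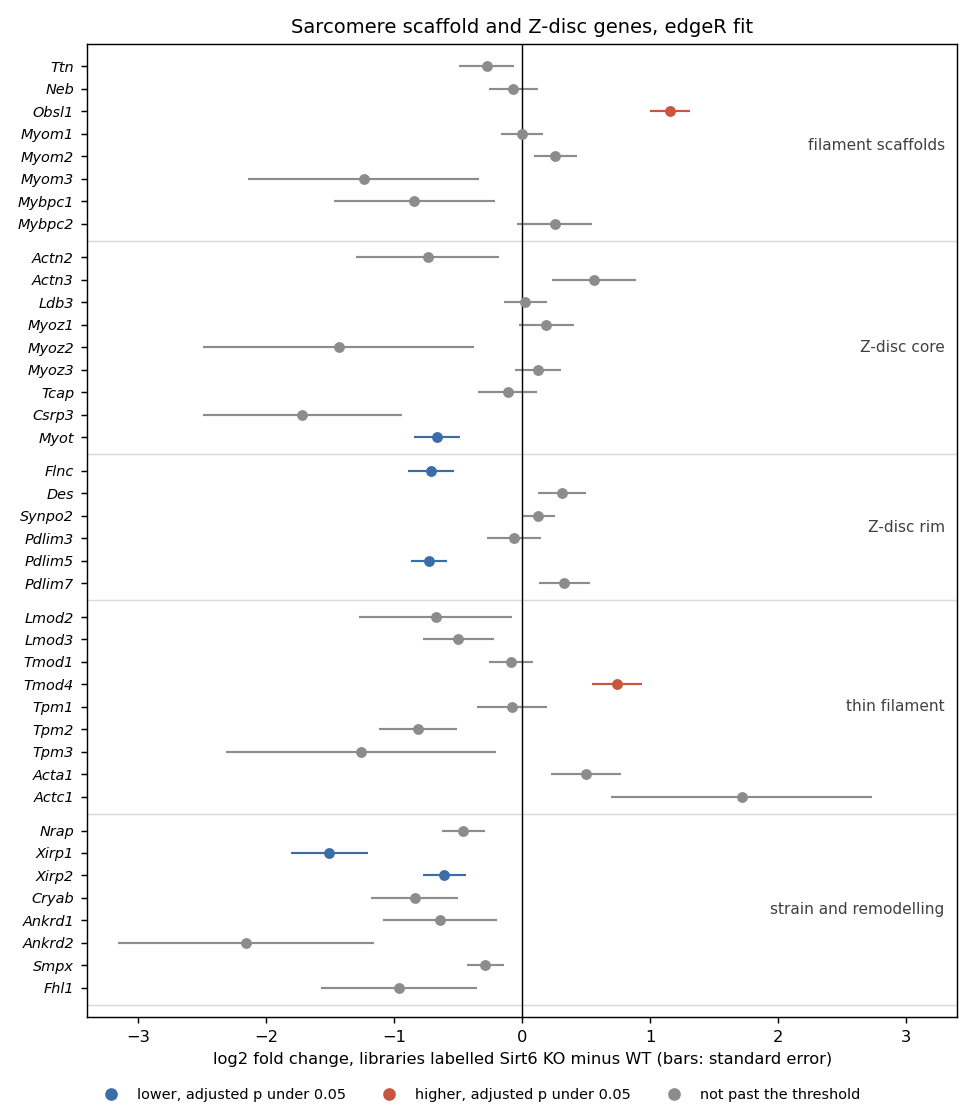
Log2 fold change of each of the 40 genes, libraries labelled *Sirt6* KO minus WT (x axis), with genes grouped by role (y axis). Points are edgeR estimates and bars the standard error from 3 libraries per group; the 7 coloured points have an adjusted p under 0.05, and several of the widest shifts, such as *Ankrd2* at -2.15, have wide bars and are grey.

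Together the 40 genes made up 10.9% ± 0.611 (SD, n = 3) of the deposited TPM (a level per unit of transcript length, scaled to the same total in every library) in WT and 11.5% ± 0.274 in the libraries labelled KO. The most abundant was *Acta1*, skeletal alpha-actin, at a mean of 44777 TPM over the 6 libraries and the highest level of any gene in the table. It was followed by *Tpm1* (28754 TPM, alpha-tropomyosin), *Actn3* (6371 TPM), *Mybpc2* (4338 TPM) and *Tcap* (3685 TPM). At the other end stood *Ankrd1* at 7.58 TPM. None of these 6 genes passed the test between groups by edgeR.

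The filament scaffolds are *Ttn* (titin), *Neb* (nebulin), *Obsl1* (obscurin-like 1), the myomesins *Myom1*, *Myom2* and *Myom3* and the myosin-binding proteins *Mybpc1* and *Mybpc2*. Of these 8 genes, 1 was higher and 0 were lower by edgeR (at an unadjusted p under 0.05 and by DESeq2, also 1 and 0). *Obsl1* (chr1:75485825-75506486), whose product links titin and myomesin at the M-band, was at 28.1, 34.2 and 27.9 CPM in WT and at 80.3, 58.3 and 61.8 CPM in the libraries labelled KO. Every library labelled KO was above every WT library, and the log2 fold change was 1.15 ± 0.16 (SE), or 2.22-fold, with an adjusted p of 0.0131 by edgeR. Its transcript had the highest GC content of the 40 genes, 62.5%. Across genes the log2 fold change was larger at higher GC content (Spearman's rho 0.339 over 13271 genes, which are not independent replicates), and with GC content corrected for, the log2 fold change of *Obsl1* was 0.86 (adjusted p = 0.0315).

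The giant scaffolds did not pass the test. *Ttn* ran from 14988 to 19260 CPM in WT and from 13167 to 13944 in the libraries labelled KO, without overlap, but its log2 fold change of -0.28 ± 0.21 did not pass the test (adjusted p = 0.386). *Neb* ran from 6659 to 8331 CPM in WT and overlapped with 6469 to 7617 in the libraries labelled KO. *Myom1* averaged 2181 ± 300 CPM in WT and 2179 ± 110 in the libraries labelled KO (SD, n = 3).

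Of the other M-band and C-zone genes, *Myom3*, *Mybpc1* and *Mybpc2* overlapped between groups and *Myom2* did not. *Myom2*, the myomesin of fast fibers, was at 1752, 2104 and 2412 CPM in WT and 2419, 2558 and 2528 CPM in the libraries labelled KO. Every library labelled KO was above every WT library, but the log2 fold change of 0.26 ± 0.17 did not pass the test (adjusted p = 0.311 by edgeR). *Myom3*, enriched in intermediate and slow fibers, was at 68.5, 83.2 and 7.38 CPM in WT and 10.1, 47.2 and 10.2 CPM in the libraries labelled KO. The lowest value was that of WT 3 and the groups overlapped (log2 fold change -1.24 ± 0.90, adjusted p = 0.360). *Mybpc1*, slow myosin-binding protein C, also had WT 2 as its highest and WT 3 as its lowest library, with 1995, 2634 and 523 CPM in WT and 624, 1682 and 571 CPM in the libraries labelled KO. *Mybpc2*, the fast form, was at 5109, 5576 and 10047 CPM in WT and 8711, 7262 and 8757 CPM in the libraries labelled KO, where WT 1 and WT 2 were the lowest and WT 3 the highest.

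The Z-disc core comprises the alpha-actinins *Actn2* and *Actn3*, *Ldb3* (ZASP), the calsarcins *Myoz1*, *Myoz2* and *Myoz3*, *Tcap* (telethonin), *Csrp3* (muscle LIM protein) and *Myot* (myotilin). Of these 9 genes, 1 was lower and 0 were higher by edgeR, and the counts were the same at an unadjusted p under 0.05 and by DESeq2. *Myot*, an actin-bundling Z-disc protein, was at 1567, 1879 and 1405 CPM in WT and 973, 1175 and 912 CPM in the libraries labelled KO. The groups did not overlap, and the level was 1.59-fold lower (log2 fold change -0.66 ± 0.18, adjusted p = 0.0439 by edgeR). *Myot* lost the call in 5 of the 6 fits that left out a library, with adjusted p up to 0.176, and with GC correction (0.0936).

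*Csrp3*, which shuttles between Z-disc and nucleus, had a larger shift and a larger spread, at 131, 141 and 24.5 CPM in WT and 13.7, 61.2 and 15.4 CPM in the libraries labelled KO. WT 3 lay below KO 2, so the groups overlapped, and the log2 fold change of -1.72 ± 0.78 did not pass (adjusted p = 0.159). *Myoz2*, the slow fiber calsarcin, ranged still further, at 142, 156 and 9.35 CPM in WT and 11.1, 86.1 and 16.7 CPM in the libraries labelled KO (log2 fold change -1.43 ± 1.06, adjusted p = 0.366). Its fast counterpart *Myoz1* stayed between 1667 and 2683 CPM, with 1741, 1667 and 2683 in WT and 2210, 2284 and 2457 in the libraries labelled KO.

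*Actn2* was at 1269, 1572 and 488 CPM in WT and 337, 1187 and 474 CPM in the libraries labelled KO. *Actn3*, which is restricted to fast fibers, was at 5178, 5910 and 10386 CPM in WT and 13339, 8269 and 10136 CPM in the libraries labelled KO. Neither alpha-actinin passed the test, with log2 fold changes of -0.74 ± 0.56 and 0.56 ± 0.33 (adjusted p = 0.376 and 0.255). *Tcap*, which caps titin at the Z-disc, was at 1658, 2186 and 1274 CPM in WT and 1623, 1785 and 1329 CPM in the libraries labelled KO. *Ldb3* averaged 1733 ± 141 and 1762 ± 254 CPM and *Myoz3* 229 ± 43.4 and 249 ± 40.7 CPM in WT and in the libraries labelled KO (SD, n = 3).

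The Z-disc rim is formed by *Flnc*, *Des*, *Synpo2*, *Pdlim3*, *Pdlim5* and *Pdlim7*, of which edgeR called 2 lower and 0 higher, as did DESeq2 and an unadjusted p under 0.05. *Flnc* (chr6:29433153-29461889), the muscle filamin that crosslinks actin and is cleared and replaced in strained Z-discs, was at 950, 1188 and 819 CPM in WT and 565, 690 and 551 CPM in the libraries labelled KO. All values labelled KO lay below all WT values, a 1.64-fold difference (log2 fold change -0.71 ± 0.18, adjusted p = 0.0403 by edgeR). *Flnc* was also called with GC correction, at -0.96 (adjusted p = 0.0339), but among the fits leaving out a library only without WT 3.

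*Pdlim5* (ENH, chr3:142239585-142395719), an adaptor between alpha-actinin and kinases, was at 742, 900 and 813 CPM in WT and 450, 500 and 536 CPM in the libraries labelled KO. The gap between the groups was wider than the range within either, and the level was 1.65-fold lower (log2 fold change -0.72 ± 0.14, adjusted p = 0.0204 by edgeR, and 0.0602 with GC correction). Among the fits leaving out a library, *Pdlim5* was called without WT 3 alone. Related PDZ-LIM genes had no such gap. *Pdlim3* ran from 229 to 404 CPM in WT and from 263 to 324 in the libraries labelled KO, and *Pdlim7* from 184 to 291 and from 245 to 312. *Des* (desmin, 3022 ± 426 and 3751 ± 523 CPM) and *Synpo2* (myopodin, 268 ± 29.3 and 293 ± 18.6 CPM; SD, n = 3) overlapped between groups.

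**Figure D2:**
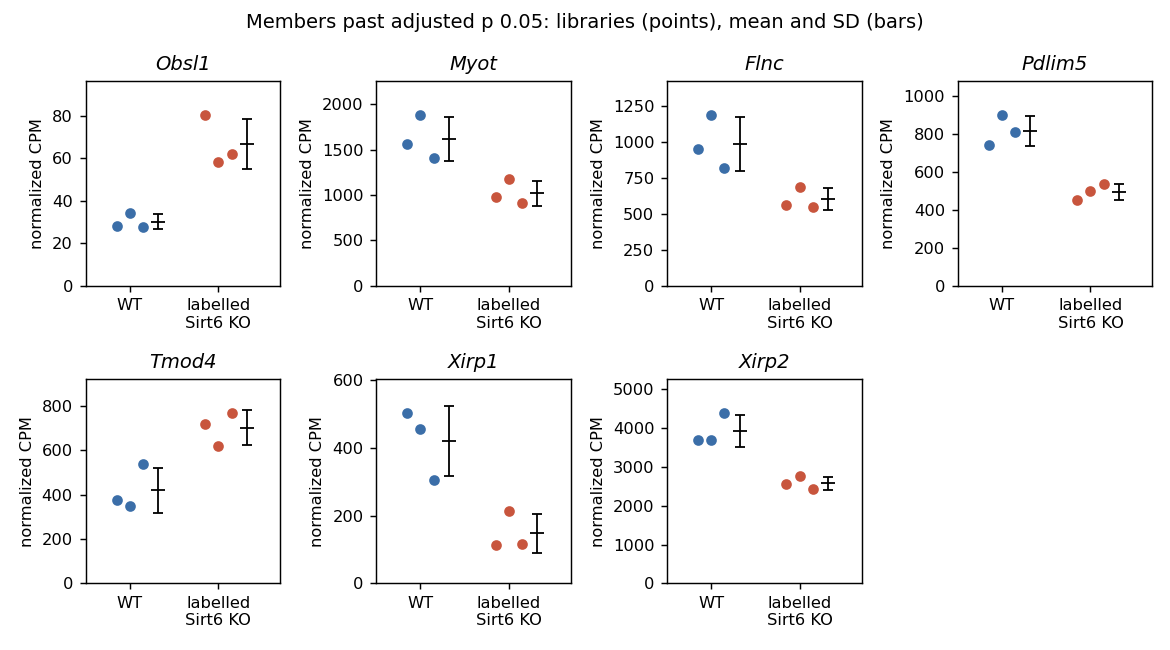
Normalized CPM (y axis, from 0) of the 7 called genes in each library (points) by group (x axis), with the mean and SD of 3 libraries beside them. In each panel the groups do not overlap, and *Xirp1* has the largest relative difference, 304 to 503 in WT and 115 to 215 in the libraries labelled KO.

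The thin filament genes are the leiomodins *Lmod2* and *Lmod3*, the tropomodulins *Tmod1* and *Tmod4*, the tropomyosins *Tpm1*, *Tpm2* and *Tpm3* and the actins *Acta1* and *Actc1*. Of these 9, edgeR called 1 higher and 0 lower (1 and 1 at an unadjusted p under 0.05, and 2 and 1 by DESeq2). *Tmod4* (chr3:95122799-95129209), the skeletal muscle tropomodulin that caps actin pointed ends, was at 376, 349 and 536 CPM in WT and 720, 618 and 768 CPM in the libraries labelled KO. It was higher in every library labelled KO, by 1.67-fold (log2 fold change 0.74 ± 0.20, adjusted p = 0.0431 by edgeR), and lost the call with GC correction (0.0764) and in 5 of the 6 fits that left out a library. Its locus overlaps *Vps72*, which reached at most 3735 counts in a library where *Tmod4* had at least 16469, and whether strand was used in counting is not given in the sources used here. *Tmod1*, the other tropomodulin, was at 298, 304 and 437 CPM in WT and 336, 329 and 315 CPM in the libraries labelled KO. It overlaps *Tstd2* (at most 1128 counts).

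*Lmod2* was at 121, 186 and 43.1 CPM in WT and 54.8, 128 and 35.7 CPM in the libraries labelled KO. *Lmod3*, an actin nucleator of skeletal muscle, was at 110, 116 and 65.7 CPM in WT and 49.5, 91.1 and 65.4 CPM in the libraries labelled KO. In both leiomodins WT 1, WT 2 and KO 2 were the 3 highest libraries, and neither passed the test.

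The tropomyosins differed in the order of their libraries. *Tpm1*, at 13386, 14743 and 23337 CPM in WT and 16961, 15095 and 16572 CPM in the libraries labelled KO, had WT 1 and WT 2 among its lowest values. Its log2 fold change of -0.08 was not called by edgeR, whereas limma on log2(FPKM + 1) after quantile normalization gave -0.49 (adjusted p = 0.0143). The deposited TPM of *Tpm1* overlapped between groups, at 26533, 27459 and 37218 in WT and 29359, 24827 and 27131 in the libraries labelled KO. *Tpm3*, the slow fiber tropomyosin gene, was at 623, 511 and 27.5 CPM in WT and 59.4, 348 and 78.4 CPM in the libraries labelled KO, a range of 22.7 times between libraries (log2 fold change -1.26 ± 1.05, adjusted p = 0.424). *Tpm2* (beta-tropomyosin) averaged 4870 ± 1320 CPM in WT and 2773 ± 880 CPM in the libraries labelled KO (SD, n = 3), and its log2 fold change of -0.81 had an adjusted p of 0.103 by edgeR.

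The actins are nearly identical in coding sequence, and how reads shared between them were assigned is not given in the sources used here. *Acta1* was at 22354, 24376 and 32705 CPM in WT and 31134, 40156 and 40923 CPM in the libraries labelled KO. KO 1 lay below WT 3, and the log2 fold change of 0.50 ± 0.27 had an adjusted p of 0.233 by edgeR. *Actc1*, cardiac alpha-actin, which skeletal muscle expresses mainly before birth and in regeneration, was at 95.8, 275 and 55.6 CPM in WT and 39.5, 389 and 970 CPM in the libraries labelled KO. Its highest and lowest values were both in libraries labelled KO, and the log2 fold change of 1.71 ± 1.02 did not pass (adjusted p = 0.266). Without KO 3 it was 0.60.

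The strain and remodelling genes are *Nrap*, *Xirp1*, *Xirp2*, *Cryab*, *Ankrd1*, *Ankrd2*, *Smpx* and *Fhl1*. All 8 log2 fold changes were negative (51.6% of all genes were), from -2.15 to -0.29 with a median of -0.74 against -0.02 over all genes. Of the 8 genes, 2 were called lower (8.39% of all genes were), and 4 had an unadjusted p under 0.05, all lower, against 35.3% of all genes in either direction. *Xirp1* (Xin, chr9:120013755-120023598), an actin-binding protein of the myotendinous junction and of damaged fibers, was at 503, 455 and 304 CPM in WT and 115, 215 and 115 CPM in the libraries labelled KO. The groups did not overlap, and *Xirp1* was 2.84-fold lower (log2 fold change -1.51 ± 0.30, adjusted p = 0.0223 by edgeR). With GC content corrected for it was -1.74 (adjusted p = 0.0300), and the call held in 2 of the 6 fits that left out a library, those without WT 3 and without KO 2.

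*Xirp2* (chr2:67446000-67526620), its larger relative, which binds filamin C and alpha-actinin, was at 3694, 3704 and 4397 CPM in WT and 2554, 2765 and 2428 CPM in the libraries labelled KO. All libraries labelled KO lay below the WT libraries, by 1.52-fold on average (log2 fold change -0.61 ± 0.17, adjusted p = 0.0468 by edgeR). Its transcript has a GC content of 42.2%, and with GC correction the difference was -0.36 (adjusted p = 0.194). Leaving out a library kept the call of *Xirp2* only without WT 3. *Nrap*, a scaffold of myofibril assembly (1664 ± 224 and 1210 ± 145 CPM), and *Smpx*, a small muscle protein (338 ± 44.7 and 277 ± 28.7 CPM; SD, n = 3), were also lower without overlap, but their adjusted p values were 0.101 and 0.202 by edgeR.

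*Ankrd2* (ARPP), a titin-binding protein of slow fibers that is induced by stretch, had the largest absolute log2 fold change of the 40 genes. It was at 107, 123 and 18.3 CPM in WT and 3.35, 43.8 and 8.57 CPM in the libraries labelled KO, a log2 fold change of -2.15 ± 1.00 with an adjusted p of 0.168 by edgeR. WT 3 lay below KO 2. *Fhl1*, a LIM protein of the sarcomere, was at 1261, 1522 and 291 CPM in WT and 416, 855 and 308 CPM in the libraries labelled KO, and WT 3 was its lowest library (log2 fold change -0.96 ± 0.61, adjusted p = 0.296). *Cryab*, the chaperone alpha B-crystallin, averaged 606 ± 258 and 339 ± 87.2 CPM, and *Ankrd1* (CARP) 7.66 ± 2.79 and 4.91 ± 3.02 CPM (SD, n = 3), both with overlap. The *Cryab* locus overlaps that of *Hspb2*, which reached at most 3470 counts where *Cryab* had at least 15444.

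Some of the 40 genes ranged widely between libraries of the same group. The highest library was over 5 times the lowest in 9 of the 40 genes (22.5%), against 8.82% of all genes tested, and these were *Ankrd2*, *Actc1*, *Tpm3*, *Myoz2*, *Myom3*, *Csrp3*, *Fhl1*, *Lmod2* and *Mybpc1*. In 13 of the 40 genes (32.5%), WT 1, WT 2 and KO 2 were the 3 highest libraries, against 10.4% of all genes. The 13 were 8 of the 9 just named, without *Actc1*, plus *Actn2*, *Tcap*, *Lmod3*, *Tpm2* and *Cryab*. The same 3 libraries were the highest in 9 of the 10 slow fiber genes. They were the lowest 3 in *Mybpc2*, *Actn3* and *Tpm1* (7.5% of the 40, against 8.17% of all genes). The slow fiber sum moved with the levels of these genes, and its part in the differences between groups was not tested. Of the called genes, *Xirp1*, *Flnc* and *Myot* had WT 3 as the lowest of the WT libraries and KO 2 as the highest of those labelled KO. *Tmod4*, called higher, had the mirrored order, with WT 3 the highest WT library and KO 2 the lowest of those labelled KO.

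**Figure D3:**
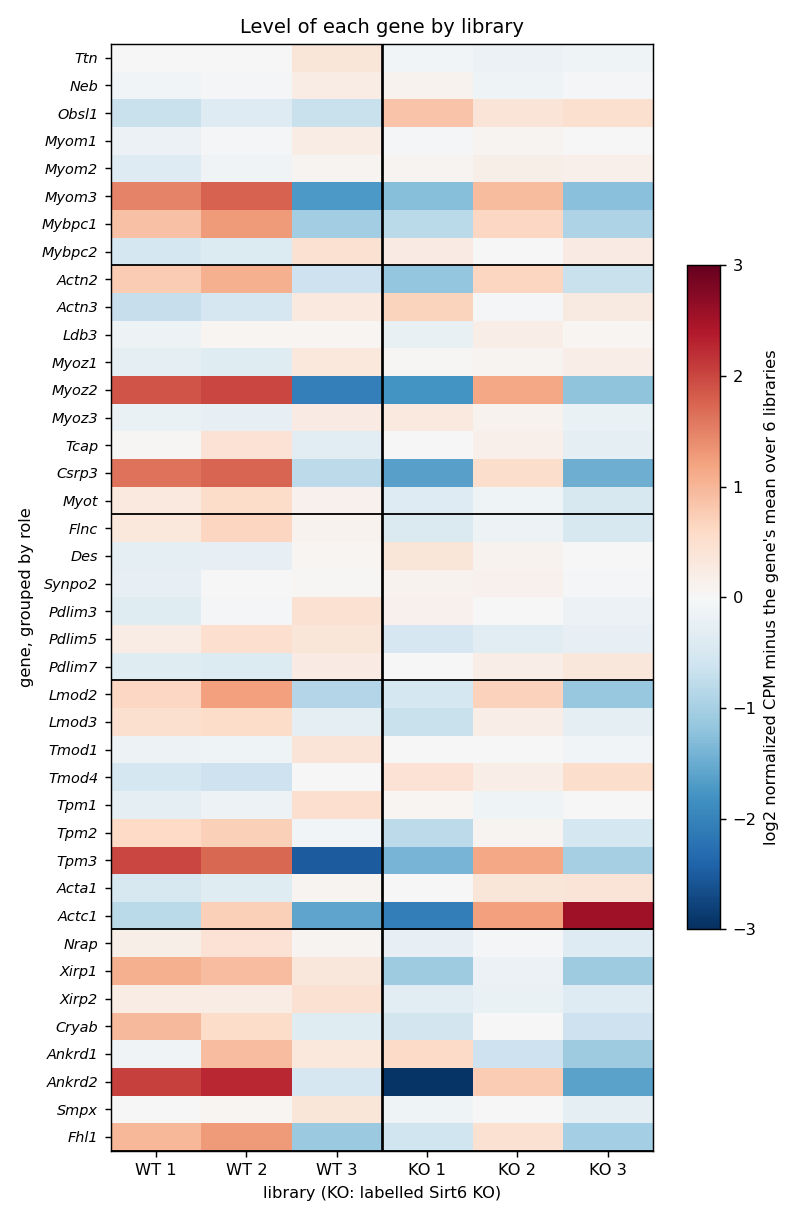
Level of each of the 40 genes (rows, grouped by role) in each library (columns), as log2 normalized CPM minus the gene's own mean over the 6 libraries. Red is above and blue below that mean; *Myom3*, *Myoz2*, *Csrp3*, *Tpm3* and *Ankrd2* are red in WT 1, WT 2 and KO 2 and blue in WT 3, KO 1 and KO 3, while *Xirp1*, *Xirp2* and *Pdlim5* divide by group.

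**Figure D4:**
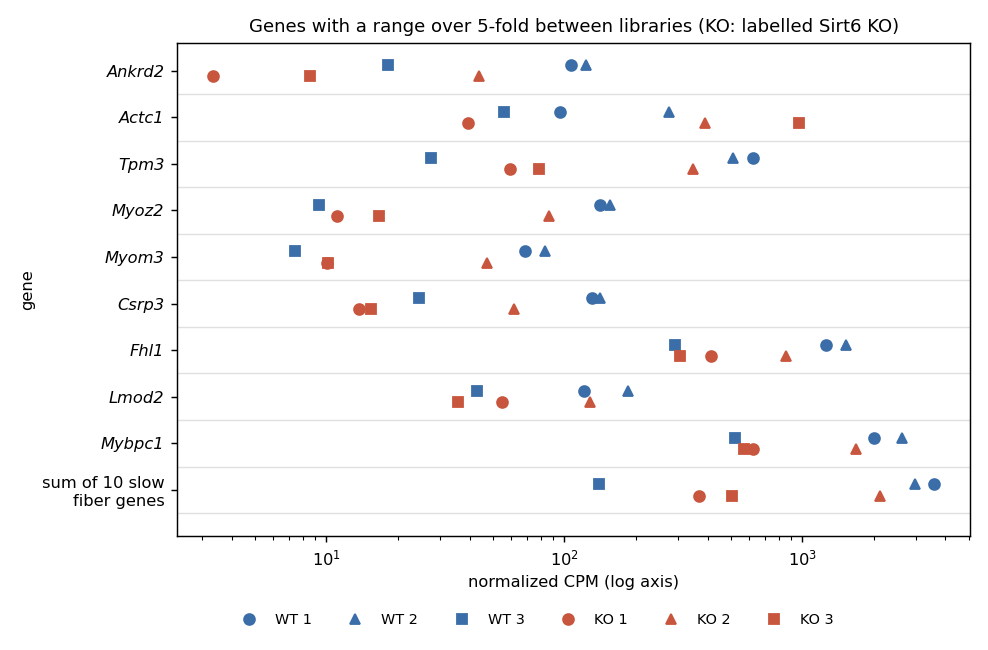
Normalized CPM (x axis, log scale) of the 9 genes with a range over 5-fold and of the sum of 10 slow fiber genes (rows), with each library as a symbol, WT in blue and the libraries labelled KO in red. In each row except *Actc1* and *Ankrd2*, WT 3 lies with KO 1 and KO 3, and KO 2 lies nearer to WT 1 and WT 2. The highest library of *Actc1* is KO 3, and in the *Ankrd2* row KO 2 (43.8) lies about midway between WT 1 (107) and WT 3 (18.3).

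The number of called genes moved with each library left out. Without WT 1 or without WT 2, 1 of the 40 genes was called by edgeR (*Obsl1*), against 3.15% and 1.78% of all genes, and without KO 2, 2 were called (*Obsl1* and *Xirp1*), against 6.21%. Without WT 3, all 7 calls were kept and 17 of the 40 genes were called (42.5%, against 32.5% of all genes): to the 7 were added *Cryab*, *Csrp3*, *Fhl1*, *Nrap* and *Tpm2* as lower and *Acta1*, *Actn3*, *Mybpc2*, *Myoz1* and *Pdlim7* as higher. Without KO 1 or without KO 3, edgeR called 0 of the 40 genes, against 0.0568% and 0.0921% of all genes, with 6 lower and 3 higher or 5 lower and 2 higher at an unadjusted p under 0.05, where DESeq2, tried after the data were seen, called 6 lower and 3 higher or 5 lower and 2 higher. The share of all genes that DESeq2 called there was not computed, and neither was the share at an unadjusted p under 0.05. On all 6 libraries, 25% of the 40 genes and 35.3% of all genes had an unadjusted p under 0.05 by edgeR. *Obsl1* kept an adjusted p under 0.05 by edgeR in 4 of these 6 fits, the most of the 7, and lost it without KO 1 (0.0606) and without KO 3 (0.0699). On all 6 libraries DESeq2 called 8 lower and 3 higher (27.5%, against 25.6% of all genes), adding *Cryab*, *Nrap*, *Tpm2* and *Acta1*. The direction of the 7 called genes was the same in all alternatives tried.

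Ratios within a library compare related genes on the TPM scale and do not depend on library scaling. For 8 pairs, the log2 ratio was compared between groups by a two-sided exact permutation test, which with 3 libraries against 3 cannot give a p below 0.1. *Tmod1* to *Tmod4* was the pair without overlap, at 0.343, 0.376 and 0.353 in WT and 0.201, 0.230 and 0.178 in the libraries labelled KO. The difference in log2 ratio was -0.82, with an exact p = 0.1, the smallest possible, and an adjusted p of 0.64 over the 8 pairs by the exact permutation test.

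In the pairs of a slow and a fast form, WT 3 lay far below WT 1 and WT 2. *Actn2* to *Actn3* was 0.237, 0.257 and 0.0455 in WT and 0.0244, 0.139 and 0.0452 in the libraries labelled KO (log2 difference -1.39, exact p = 0.2). *Myoz2* to *Myoz1* was 0.0915, 0.105 and 0.00391 in WT and 0.00566, 0.0423 and 0.00763 in the libraries labelled KO (-1.45, exact p = 0.4). *Tpm3* to *Tpm1* was 0.0479, 0.0354 and 0.000837 in WT and 0.00307, 0.0237 and 0.00445 in the libraries labelled KO (-0.71, exact p = 0.8). In each of these 3 pairs the value of KO 2 stood between those of WT 1 and WT 3.

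*Mybpc1* to *Mybpc2* differed by -1.05 and *Myom3* to *Myom2* by -1.31 on the log2 scale (exact p = 0.4 for both), again with WT 3 as the lowest library. *Actc1* to *Acta1* ran from 0.00129 to 0.0241 and *Lmod3* to *Lmod2* from 0.546 to 1.61, with log2 differences of 0.61 and 0.15 (exact p = 0.8 for both). After adjustment over the 8 pairs the exact p values were 0.64 or 0.8.

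**Figure D5:**
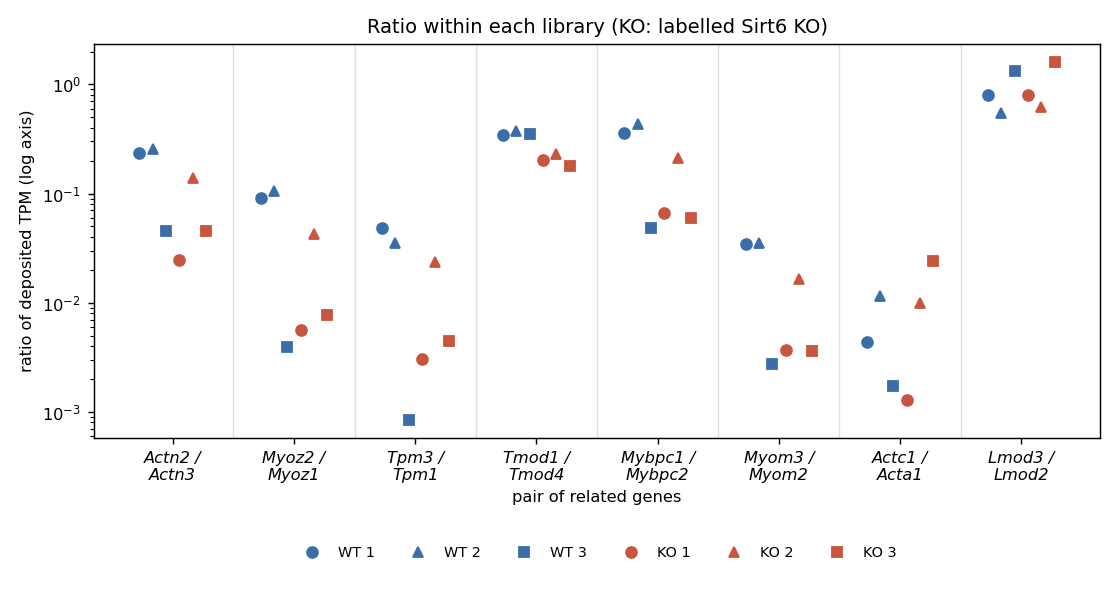
Ratio of deposited TPM of the first to the second gene of each of 8 pairs (x axis) in each library, on a log axis (y axis), WT in blue and the libraries labelled KO in red. The *Tmod1* to *Tmod4* ratio is 0.343 to 0.376 in WT and 0.178 to 0.230 in the libraries labelled KO, while in the 5 slow to fast pairs WT 3 lies near KO 1 and KO 3 or below them.

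A wider list of 41 other sarcomere genes (40 tested) was read from the same fit. Of these, 4 were lower and 2 higher, or 15% of those tested against 16.2% of all genes, with a median log2 fold change of -0.09. *Trim63* (MuRF1), a ubiquitin ligase of the M-band that marks sarcomeric proteins for breakdown, was at 1177, 2886 and 2551 CPM in WT and 561, 612 and 719 CPM in the libraries labelled KO (log2 fold change -1.81, adjusted p = 0.0181 by edgeR). *Bag3*, a co-chaperone in the turnover of filamin, was at 344, 279 and 185 CPM in WT and 90.8, 156 and 114 CPM in the libraries labelled KO (log2 fold change -1.16, adjusted p = 0.0330). *Nexn* (nexilin, -0.71) and *Cfl2* (muscle cofilin, -0.63) were lower as well, but with GC correction they were at -0.38 and -0.23 (adjusted p = 0.128 and 0.236 by edgeR). *Mybph*, a myosin-binding protein related to the members *Mybpc1* and *Mybpc2*, was higher at 2.27 (45.7, 210 and 225 CPM in WT, 1003, 475 and 846 CPM in the libraries labelled KO), as was *Synpo2l*, a relative of *Synpo2*, at 0.85. With GC correction *Mybph* was at 2.06 (adjusted p = 0.0676). Among the 6 fits leaving out a library, *Synpo2l* kept its call in 4, *Trim63*, *Bag3* and *Mybph* in 2 each, and *Nexn* and *Cfl2* in 1, without WT 3. In these 6 genes too the groups did not overlap. The same was true of 16 of the 40 tested genes of the wider list (40%), against 39.99% of all genes tested.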

How the data were processed

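Gastrocnemius RNA (TRIzol) was sequenced from 6 libraries in paired 100 bp reads. The authors deposited 1 table of read counts, FPKM and TPM per gene. Their processing notes name HISAT2 2.1.0, Bowtie2 2.3.4.1 and StringTie 2.1.3b with mm10, while a reporting form names another aligner, and the labels and methods name different library kits. Here read counts, deposited by the authors without normalization, were tested. FPKM values deposited by the authors entered limma alternatives with a pseudocount of 1 or 0.1, after quantile normalization of the log2 values. TPM values deposited by the authors gave levels and ratios.

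All 24532 genes entered edgeR 4.0.16 (R 4.3.3): filterByExpr kept 13801, TMM scaling, quasi-likelihood test, Benjamini-Hochberg adjustment, threshold 0.05. The common biological coefficient of variation was 24.1%. The CPM values are on the TMM scale. DESeq2 1.42.0 and limma 3.58.1 served as alternatives, beside other filters and scalings, GC and length correction (lowess, span 0.3, longest GENCODE transcript, 96.2% of the tested genes matched), the replicate block and leaving out each library. The methods' fold change on log2(FPKM + 1) was replaced by a count model. Scripts were tested on simulated data. Gene coordinates and promoters are from RefSeq (GRCm38.p6). The motifs searched are spelled out or named where they are first used.

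The 40 members and all lists were chosen with earlier results of these data known. All 40 are named; values in every library are given for those with an adjusted p under 0.05, the 10 largest absolute log2 fold changes, the 5 highest mean TPM and the pairs, and of the wider list up to 8 called genes are named. *Mybphl* of the wider list was not tested. A further promoter match and a further marker gene are not reported here.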

Additional observations from a re-analysis of the deposited data

How the results depend on the processing

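The replicate numbers gave no clear pairing of the libraries (correlation of same-numbered deviations -0.14, 0.34 and 0.22). KO 1 and KO 3 both correlated best with WT 3, and KO 2 correlated best with WT 2. Deviations from a group mean sum to 0 within the group, so these correlations are not independent. With the replicate block 4 members were lower and 2 higher, and of the wider list 6 were lower and 1 higher. Depth was not limiting for these genes, whose lowest count in a library was 149. No scaling moved the median of all genes by over 0.1 on the log2 scale. Over all genes, against 1158 lower and 1084 higher, DESeq2 called 1801 and 1730, GC correction 487 and 465, and GC correction with the block 369 and 286. No low-count filter gave 896 and 830 over all genes, length correction 1100 and 1027, and the replicate block 1018 and 904. Of the members, DESeq2 called 8 lower (3 higher), no low-count filter left 3 lower and 1 higher, GC correction 2 and 1, GC correction with the block 2 and 0 (12 and 2 at an unadjusted p under 0.05), and length correction 3 and 1. For GC correction with the block, the share of all genes at an unadjusted p under 0.05 was not computed. Of the wider list, DESeq2 called 8 lower and 4 higher, limma with a pseudocount of 1 gave 5 higher, GC correction 2 lower and 1 higher, and GC correction with the block 1 higher. The cause was not tested.

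Leaving out each library in turn gave 2 to 2219 genes lower and 6 to 2363 higher over all genes, with the highest counts without WT 3 and the lowest without KO 1. Members ranged from 0 to 10 lower and 0 to 7 higher by edgeR (5 to 13 and 2 to 9 by DESeq2, added after the data were seen), and the wider list from 0 to 10 and 0 to 6 (4 to 11 and 1 to 8). The share of all genes that DESeq2 called with a library left out was not computed, so its counts have no background to be read against. Where an arm was left with 2 libraries, the spread was still estimated from all 5.

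Directions turned for *Neb* (0.0097 with GC correction, 0.014 with the block added, 0.14 with length correction), *Ldb3* (-0.012 and -0.018 with GC correction without and with the block), *Pdlim3* (0.16 and 0.19) and *Myom1* (0.00049 by DESeq2, 0.00050 with its size factors, 0.0051 without a filter, 0.0094 with the FPKM filter, 0.0066 with the block, 0.069 with length correction). Leaving out a library gave ranges across 0 for *Neb* (-0.14 to 0.044), *Myom1* (-0.069 to 0.12), *Ldb3* (-0.063 to 0.13), *Tcap* (-0.28 to 0.11), *Pdlim3* (-0.23 to 0.18), *Tmod1* (-0.17 to 0.12) and *Tpm1* (-0.22 to 0.21), and for the log2 ratios of *Tpm3* to *Tpm1* (-2.59 to 0.34), *Actc1* to *Acta1* (-0.31 to 1.80) and *Lmod3* to *Lmod2* (-0.25 to 0.49). Taking CPM in place of TPM turned no pair.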

Other observations

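Genes of regeneration and denervation, a list of 9 that were all tested, lay outside the comparisons above, and the genes named here were chosen after their values were seen. *Pax7*, the marker of muscle stem cells, was at 0.421, 0.488 and 0.541 CPM in WT and at 1.16, 1.04 and 1.33 CPM in the libraries labelled KO (log2 fold change 1.28, adjusted p = 0.0299 by edgeR). *Chrna1*, a subunit of the acetylcholine receptor, was higher by 0.73 on the log2 scale (adjusted p = 0.0464), and *Myog*, a transcription factor of differentiating and denervated muscle, was lower (log2 fold change -0.96, adjusted p = 0.0246), at 22.2, 27.7 and 22.4 CPM in WT and 15.6, 9.14 and 12.3 CPM in the libraries labelled KO. The other 6 genes of the list did not pass the test, so 3 of 9 were called, against 16.2% of all genes tested. Whether these 3 calls hold with GC correction or with a library left out was not examined, and *Pax7* was at a low level.

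Among smooth muscle markers, *Cnn1* and *Itga8* were lower (log2 fold changes -2.02 and -1.38) and *Smtn* was higher (0.45). The summed CPM of that list without *Synm*, which muscle fibers also express, ran from 127 to 219 in WT and from 141 to 149 in the libraries labelled KO, so the sums overlapped. *Cnn1*, *Itga8* and *Smtn* were likewise not examined with GC correction or with a library left out.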
